A study of Mus musculus with 18 samples.

Results

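The mitochondrial ribosomal proteins are the nuclear-encoded proteins of the ribosome inside mitochondria. They were taken as the rows of the deposited gene count table whose symbol starts with Mrpl or Mrps followed by a digit, leaving out symbols with "-ps" or "os". The rule found 78 of 24537 gene symbols, 49 of the large subunit (Mrpl) and 29 of the small subunit (Mrps) by symbol. It used no measured value, and all 78 had enough counts to be tested among 11651 genes.

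The study measured RNA in mouse CD8+ T cells, isolated as naïve cells, given a CRISPR ribonucleoprotein and activated with antibodies to CD3 and CD28. KO cells received a guide kit against Nr4a1, the gene of the nuclear receptor Nur77, and WT cells received a scrambled guide, so the controls also went through CRISPR delivery and activation. The cells were then kept overnight with no lithocholic acid (control), or with 10 µM (LCA10) or 50 µM (LCA50) of this secondary bile acid, which gut bacteria make from a primary bile acid. The 6 groups were KO control, KO LCA10, KO LCA50, WT control, WT LCA10 and WT LCA50, each with 3 libraries, 18 in all. The sources used here give neither the strain, age and sex of the mice nor the efficiency of editing, and KO cells are a treated population, not a clone. The labels do not say whether replicates came from separate mice or cultures, so each p-value weighs a difference against library-to-library spread that could be technical.

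The mitochondrial ribosome translates the few messages that mitochondrial DNA encodes, all of them for core subunits of the respiratory chain and the ATP synthase. Its RNAs come from mitochondrial DNA, but its proteins are made in the cytosol from nuclear genes and imported. The small subunit binds the message and decodes it, and the large subunit holds the peptidyl transferase centre where amino acids are joined. Some of these proteins have a counterpart in the bacterial ribosome and others were added in the mitochondrial lineage. Activated T cells enlarge their mitochondria as they start to divide, and mitochondrial translation is reported to be needed for that growth.

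Libraries held 4113713 to 5945518 counts. Markers of CD8 T cells summed to 6203 to 10691 CPM per library (CPM is a count scaled to the size of its library), against 9.58 to 20.4 CPM for CD4 T cell, 4.75 to 11.9 CPM for B cell and 0 to 3.12 CPM for NK cell markers. The CD8 list was Cd8a, Cd8b1, Cd3e, Cd3d, Cd3g, Trac and Gzmb, with 6 of 7 in the count table. Its sum thus holds general T cell genes and a granzyme gene too. The targeted gene, Nr4a1, was at 12.05, 7.73 and 12.001 CPM in KO control, 10.7, 9.92 and 9.08 CPM in KO LCA10 and 15.7, 7.53 and 7.07 CPM in KO LCA50 cells, against 11.4, 11.6 and 5.87 CPM in WT control, 8.31, 16.5 and 8.40 CPM in WT LCA10 and 18.02, 14.9 and 7.90 CPM in WT LCA50 cells. These values overlapped, and KO against WT over the mean of the doses gave a log2 fold change of -0.16 ± 0.19 (standard error, edgeR adjusted p = 0.789). A cut repaired with a small change need not lower the RNA, so this level does not check the labels, and libraries are called KO and WT by label alone. In these bulk samples, fewer cells of a type and less RNA per cell cannot be told apart.

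Levels within the ribosome spanned a wide range. Per kilobase of the principal transcript in the GENCODE annotation of GRCm38, the mean over 18 libraries ran from 5.28 (Mrpl23) to 223 CPM per kb (Mrpl33) in the large subunit, with a median of 56.6 CPM per kb. In the small subunit it ran from 8.33 (Mrps33) to 159.8 CPM per kb (Mrps15), with a median of 47.6 CPM per kb. The ranges of the subunits overlapped per length.

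The most abundant large-subunit messages per length were Mrpl33, Mrpl20 (191 CPM per kb) and Mrpl18 (174 CPM per kb), which encode the counterparts of the bacterial proteins bL33, bL20 and uL18, the last a binder of ribosomal 5S RNA in bacteria. Those of the small subunit were Mrps15, Mrps34 (129.6 CPM per kb) and Mrps24 (101 CPM per kb), of which Mrps15 is the counterpart of bacterial uS15 and Mrps34 is specific to mitochondria. The 30 large-subunit members with a bacterial counterpart had a median of 58.3 CPM per kb, against 42.9 CPM per kb for the 19 specific to mitochondria. The 16 small-subunit members with a counterpart had a median of 53.2 CPM per kb, against 28.8 CPM per kb for the 10 specific to mitochondria. These values lean on annotated transcript lengths, which ran from 418 to 7300 bases, the longest being that of Mrpl17.

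**Figure D1:**
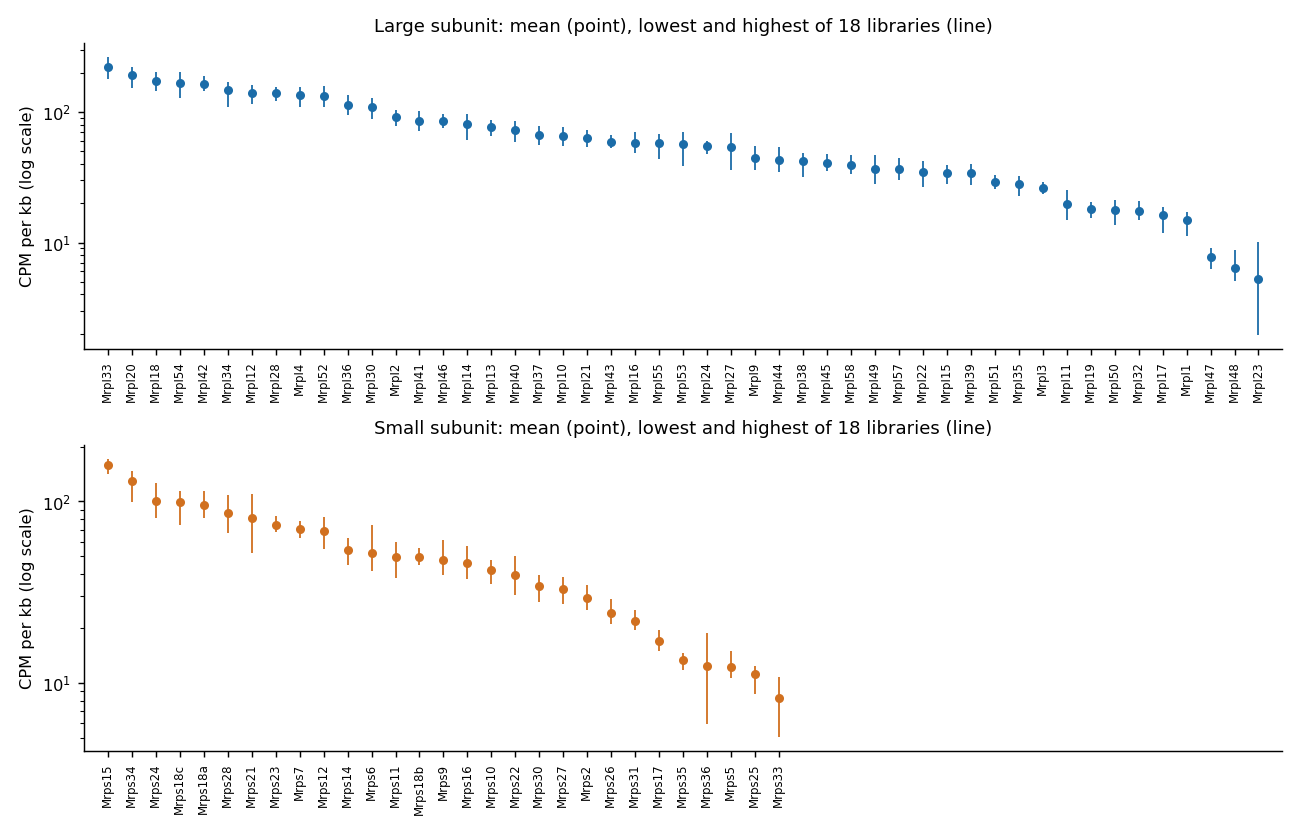
Mean level of each of the 78 members over 18 libraries in CPM per kb of transcript, on a log axis, with a line from the lowest to the highest library, large subunit and small subunit apart. Mrpl33 (223 CPM per kb) and Mrpl23 (5.28 CPM per kb) mark the ends of the large subunit, and Mrps15 and Mrps33 (8.33 CPM per kb) those of the small subunit.

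Member levels varied less over the libraries than those of most genes. The coefficient of variation over all 18 libraries had a median of 9.87% for the members, against 14.7% for all genes tested; the members' median level was 75.4 CPM, against 36.1 CPM for all genes, and genes with few counts vary more. It was lowest for Mrps15 (5.55%) and highest for Mrpl23 (43.1%), whose 6 to 31 counts per library were the fewest of any member. Counts of the other members reached 1242 in a library, for Mrpl18.

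The balance of large and small subunit messages differed little between the groups. Summed over its members, the large subunit had 4299.8, 4256 and 4171 CPM in KO control, 4401, 4322 and 3762 CPM in KO LCA10 and 4097, 4525 and 4394 CPM in KO LCA50 libraries. It had 4469, 4085 and 4357 CPM in WT control, 4209.9, 4481 and 4564 CPM in WT LCA10 and 4437, 4089 and 3893 CPM in WT LCA50 libraries. The 6 groups overlapped, and the lowest sum stood in replicate 3 of KO LCA10.

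The small subunit summed to 2131 ± 60.9 CPM in KO control, 2129 ± 159 CPM in KO LCA10 and 2205 ± 73.2 CPM in KO LCA50 cells (SD, n = 3 each). It summed to 2169.9 ± 126 CPM in WT control, 2227 ± 103 CPM in WT LCA10 and 2145 ± 89.9 CPM in WT LCA50 cells (SD, n = 3 each). Both subunits together ran from 5710.0 to 6882 CPM over the libraries, a 1.21-fold range.

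The large subunit's share of that sum was 66.9, 66.0 and 66.8% in KO control, 66.8, 65.8 and 65.9% in KO LCA10 and 65.8, 66.5 and 66.5% in KO LCA50 libraries. It was 66.4, 66.8 and 66.2% in WT control, 66.6, 66.6 and 66.3% in WT LCA10 and 66.4, 66.1 and 65.1% in WT LCA50 libraries. Group means lay between 65.9% in WT LCA50 and 66.6% in KO control cells, and single libraries between 65.1% and 66.9%. The spread within groups was as wide as that between them. Replicate 3 of WT LCA50 had the lowest share, whichever way the subunits were weighed: per kb of transcript, without the most abundant member of each, as geometric means, or with Mrps18a and Mrps30 counted in the large subunit.

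**Figure D2:**
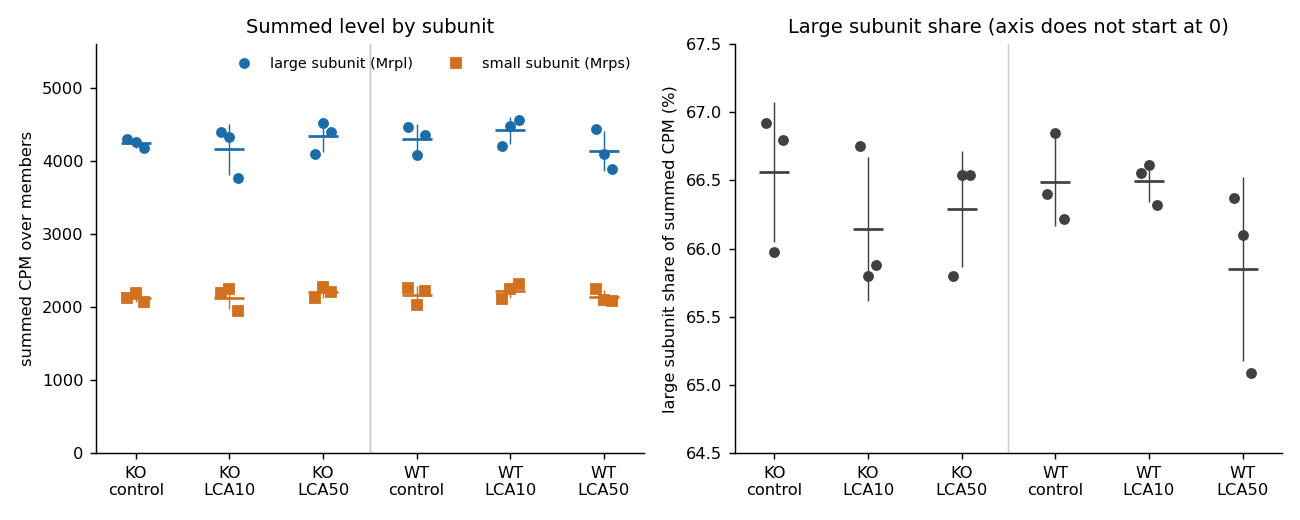
Summed CPM of the 49 large-subunit and 29 small-subunit members, and the large subunit's share of the sum in percent, for each library by group, KO groups left of WT groups, with the mean and SD (n = 3); the share axis does not start at 0. Points of all groups overlap in each panel, and replicate 3 of WT LCA50 lies lowest in the share, at 65.1%.

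With 50 µM LCA, few members moved while many other genes did. In WT cells, 1 of 78 members (1.28%) was called, Mrpl27, which was lower; of all genes tested, 8.58% were called in this contrast and 4.93% called lower (edgeR quasi-likelihood test, Benjamini-Hochberg adjusted p under 0.05). At an unadjusted p under 0.05 stood 11 members in WT cells (14.1%), against 22.2% of all genes. In KO cells no member was called by edgeR, against 6.35% of all genes; 3 members (3.85%) had an unadjusted p under 0.05, against 18.9% of all genes, and DESeq2 called 1, Mrpl34. In the average of the 2 genotypes, the mean of the KO and WT responses, 2 members were higher (Mrpl17 and Mrps28) and 2 lower (Mrpl16 and Mrpl34), against 7.86% of all genes called higher and 8.66% called lower. Together these were 5.13% of the members, against 16.5% of all genes. There 12 members (15.4%) had an unadjusted p under 0.05, against 28.8% of all genes. DESeq2 called 5 members, and the share of all genes that it called is not given here.

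The median log2 fold change of LCA50 against control in KO cells was 0.05 for the large and 0.07 for the small subunit. In WT cells the medians were -0.05 and 0.00, with members between -0.49 and 0.25, and the median of all genes was 0.00 in KO and 0.01 in WT cells. The WT LCA50 values of 9 members (11.5%) lay wholly below and those of 5 (6.41%) wholly above the WT control values, where 13.7% and 13.1% of all genes did so. In KO cells 8 members (10.3%) lay wholly above and 4 (5.13%) wholly below, where 11.5% and 11.9% of all genes did so.

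The size of any change can be bounded. The 95% interval of the LCA50 fold change lay within 1.5-fold either way for 75 of 78 members in KO cells (96.2%), 73 in WT cells (93.6%) and 76 in the average (97.4%). Of all genes tested, 57.7%, 56.0% and 68.7% had such an interval in the same contrasts; intervals are also wider for genes with few counts, and the members were mostly at moderate levels. No member had a fitted change of 2-fold in any of the 3.

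**Figure D3:**
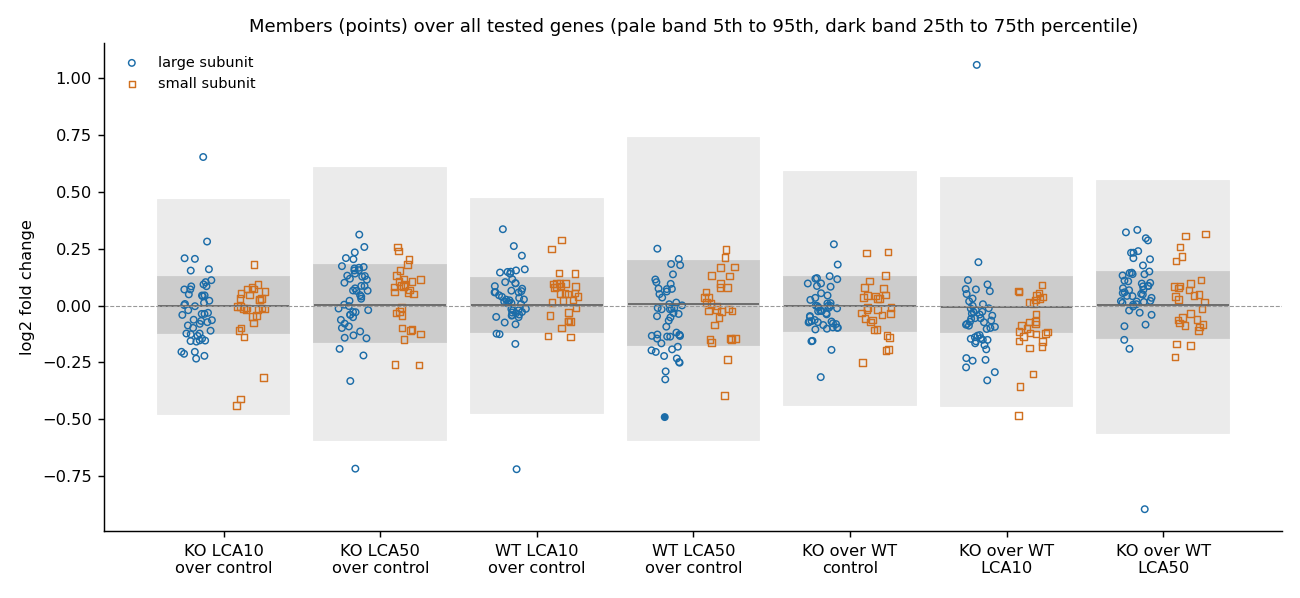
Log2 fold change of each member over bands for all 11651 genes tested (dark, 25th to 75th percentile; pale, 5th to 95th), for LCA10 and LCA50 over control in each genotype and KO over WT at each dose, with filled points for members called by edgeR. Most members lie near 0 within the pale bands, and the 1 filled point is Mrpl27 in WT LCA50 over control, at -0.49.

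Of the 5 members called at 50 µM LCA, 4 were of the large subunit, as are 62.8% of all members, and 5 have a bacterial counterpart, as do 59.0% of all members. Mrpl34, the counterpart of bL34 (chromosome 8, 71464959 to 71465747, plus strand, GRCm38), was at 66.5, 87.7 and 78.7 CPM in KO LCA50 and 102, 96.9 and 95.3 CPM in KO control cells. It was at 91.0, 85.0 and 83.3 CPM in WT LCA50 and 101, 89.9 and 103 CPM in WT control cells. In KO cells all LCA50 libraries were below all controls, and in WT cells the groups overlapped. The log2 fold change was -0.26 ± 0.08 in the average (SE, edgeR adjusted p = 0.017), -0.33 ± 0.11 in KO cells (edgeR adjusted p = 0.0574) and -0.18 ± 0.11 in WT cells (edgeR adjusted p = 0.331). Without replicate 1 of KO LCA50 the average was -0.21 and missed the threshold (edgeR adjusted p = 0.0553).

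Mrpl16, the counterpart of uL16, which in bacteria helps to place transfer RNA in the large subunit (chromosome 19, 11770391 to 11774960, plus strand), was at 61.0, 63.2 and 70.7 CPM in KO LCA50 and 67.4, 82.2 and 73.0 CPM in KO control cells. It was at 61.6, 59.1 and 56.0 CPM in WT LCA50 and 73.9, 71.9 and 75.4 CPM in WT control cells. The WT groups did not overlap, and the KO groups did. The log2 fold change was -0.26 ± 0.08 in the average (edgeR adjusted p = 0.0217), -0.19 ± 0.11 in KO cells (edgeR adjusted p = 0.365) and -0.32 ± 0.11 in WT cells (edgeR adjusted p = 0.0681). The average missed the threshold without either of KO control replicate 2 or WT LCA50 replicate 3, at -0.22 and -0.24 in turn.

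Mrpl17, the counterpart of bL17 (chromosome 7, 105803206 to 105811099, minus strand), was at 124, 132 and 132 CPM in KO LCA50 and 103, 124 and 87.1 CPM in KO control cells. It was at 121, 118 and 136 CPM in WT LCA50 and 126, 94.8 and 110.4 CPM in WT control cells. All KO LCA50 libraries were above all KO controls, by a narrow margin at replicate 1 of KO LCA50 and replicate 2 of KO control, and the WT groups overlapped. The log2 fold change was 0.25 ± 0.08 in the average (edgeR adjusted p = 0.0415), 0.31 ± 0.12 in KO cells (edgeR adjusted p = 0.122) and 0.18 ± 0.12 in WT cells (edgeR adjusted p = 0.392). The average missed the threshold without any 1 of KO LCA50 replicates 2 and 3, KO control replicates 1 and 3, WT LCA50 replicates 2 and 3 or WT control replicates 2 and 3, with values of 0.18 to 0.31 over the 12 single omissions.

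Mrps28, a small-subunit protein related to bacterial S1 (chromosome 3, 8802146 to 8923918, minus strand), was at 66.3, 84.6 and 70.3 CPM in KO LCA50 and 65.8, 65.6 and 56.5 CPM in KO control cells. It was at 73.0, 69.7 and 72.7 CPM in WT LCA50 and 68.8, 52.3 and 60.7 CPM in WT control cells. In both genotypes every LCA50 library was above every control, with the closest pair less than 1 CPM apart in KO and in WT cells. The log2 fold change was 0.24 ± 0.08 in the average (edgeR adjusted p = 0.0414), 0.24 ± 0.12 in KO cells (edgeR adjusted p = 0.262) and 0.24 ± 0.12 in WT cells (edgeR adjusted p = 0.216). The average missed the threshold without any 1 of KO LCA50 replicate 2, KO control replicates 1, 2 and 3, WT LCA50 replicates 1, 2 and 3 or WT control replicates 2 and 3, with values of 0.18 to 0.28 over the 12 single omissions.

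Mrpl27, the counterpart of bL27, whose bacterial form reaches the peptidyl transferase centre, lies on chromosome 11, 94653767 to 94660089, plus strand (GRCm38). It was at 27.4, 50.5 and 40.3 CPM in KO LCA50 and 40.1, 47.0 and 43.1 CPM in KO control cells, and at 34.98, 33.5 and 28.2 CPM in WT LCA50 and 44.0, 44.5 and 47.5 CPM in WT control cells. All WT LCA50 libraries were below all WT controls, and the KO groups overlapped. The log2 fold change was -0.49 ± 0.16 in WT cells (95% interval -0.81 to -0.17, edgeR adjusted p = 0.0478), -0.13 ± 0.16 in KO cells (edgeR adjusted p = 0.705) and -0.31 ± 0.11 in the average (edgeR adjusted p = 0.0506).

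The difference between the 2 responses of Mrpl27, KO minus WT, was 0.36 ± 0.22 and did not pass the test (edgeR adjusted p = 0.816). The WT call was lost without any 1 of WT LCA50 replicates 2 and 3 or WT control replicates 1, 2 and 3, at -0.55 to -0.41 over the 6 single omissions. The exons of Mrpl27 overlap those of Eme1 on the other strand, and without strand in the counting their reads could not be told apart.

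Library background differed between the WT groups. It was read from 1470 odorant, vomeronasal and trace amine receptor genes below the filter on low counts, whose use by T cells was not checked. It summed to 164, 47.2 and 93.4 CPM in KO LCA50 and 96.8, 94.0 and 113 CPM in KO control libraries, and to 121, 139 and 223 CPM in WT LCA50 and 79.5, 108 and 50.4 CPM in WT control libraries. The WT groups did not overlap, with replicate 3 of WT LCA50 the highest of all, while the KO groups overlapped and both the highest and the lowest KO library were of LCA50. With the log2 of this sum as a covariate, the WT value of Mrpl27 was -0.12 (edgeR adjusted p = 0.794). Since the sum did not overlap between the WT groups, this fit cannot tell background from dose for any gene in WT cells. In the average, Mrpl34 (-0.19), Mrpl16 (-0.24) and Mrpl17 (0.26) kept their sign but were no longer called, and Mrps28 (0.30) was. The summed CD8 T cell markers were 6203 to 10691 CPM in KO LCA50 and 9820.2 to 10382 CPM in KO control libraries, and 7731 to 8406 CPM in WT LCA50 and 9014 to 9342 CPM in WT control libraries, so the WT groups did not overlap. B cell markers summed to 4.75 to 5.72 CPM in KO LCA50 and 8.10 to 11.3 CPM in KO control libraries, without overlap. NK cell markers, 0.594 to 1.18 CPM in KO LCA50 and 1.19 to 1.69 CPM in KO control libraries, did not overlap, by a narrow margin. The part of these marker shifts in the results was not tested.

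**Figure D4:**
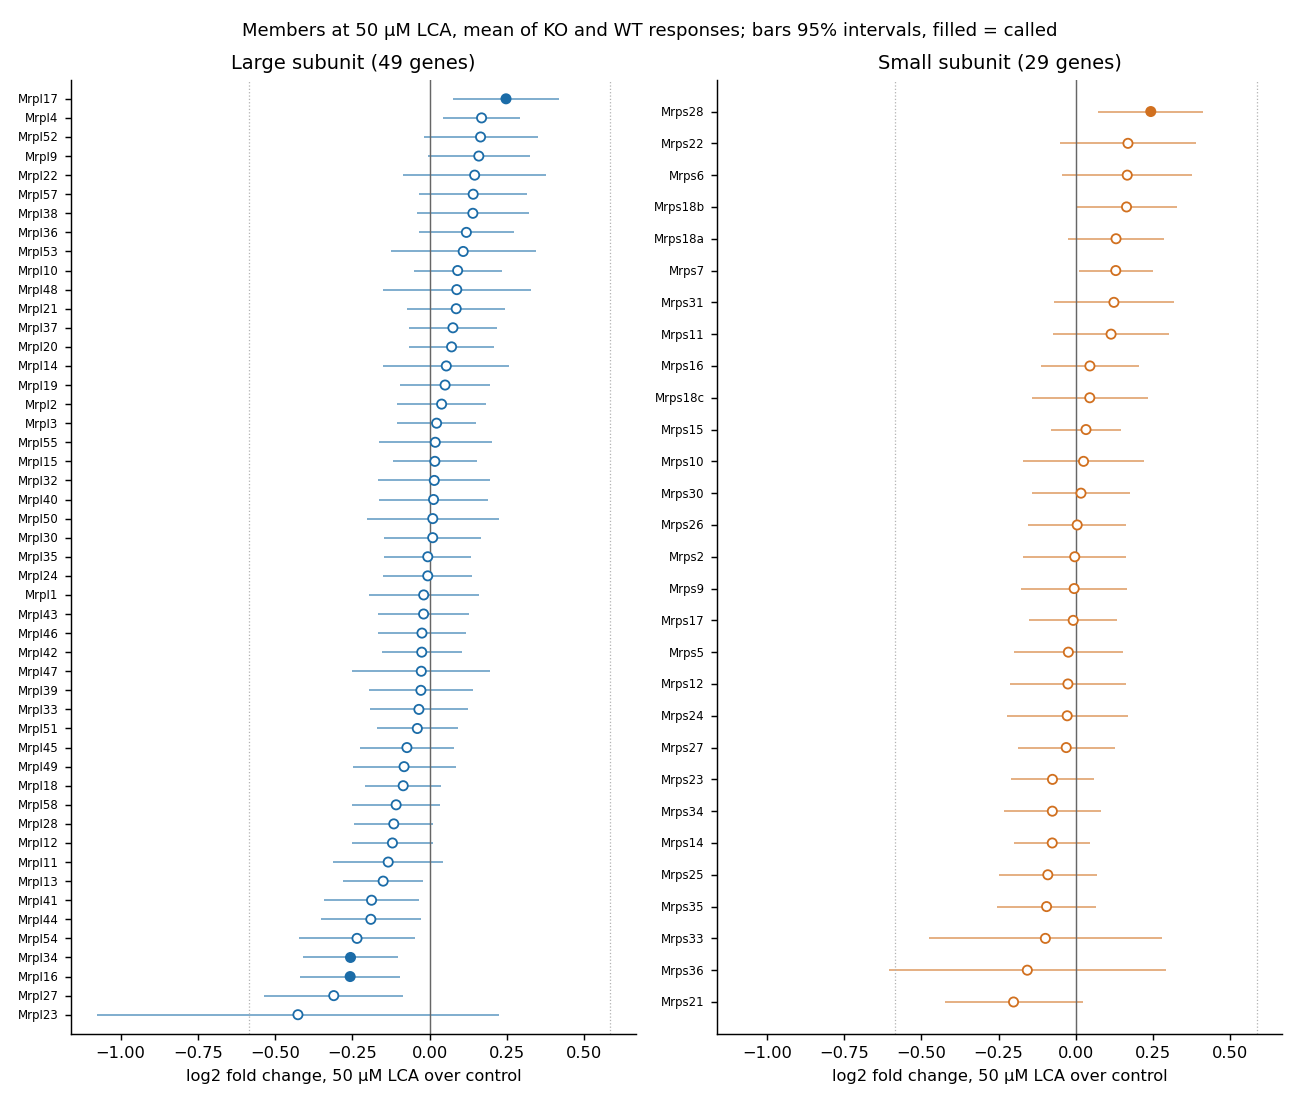
Log2 fold change of LCA50 against control, averaged over genotypes, for the 78 members with its 95% interval, filled where called, with dotted lines at 1.5-fold either way. The 2 members called lower (Mrpl34 and Mrpl16) and the 2 called higher (Mrpl17 and Mrps28) are the filled points, and 76 of the intervals lie within the dotted lines.

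**Figure D5:**
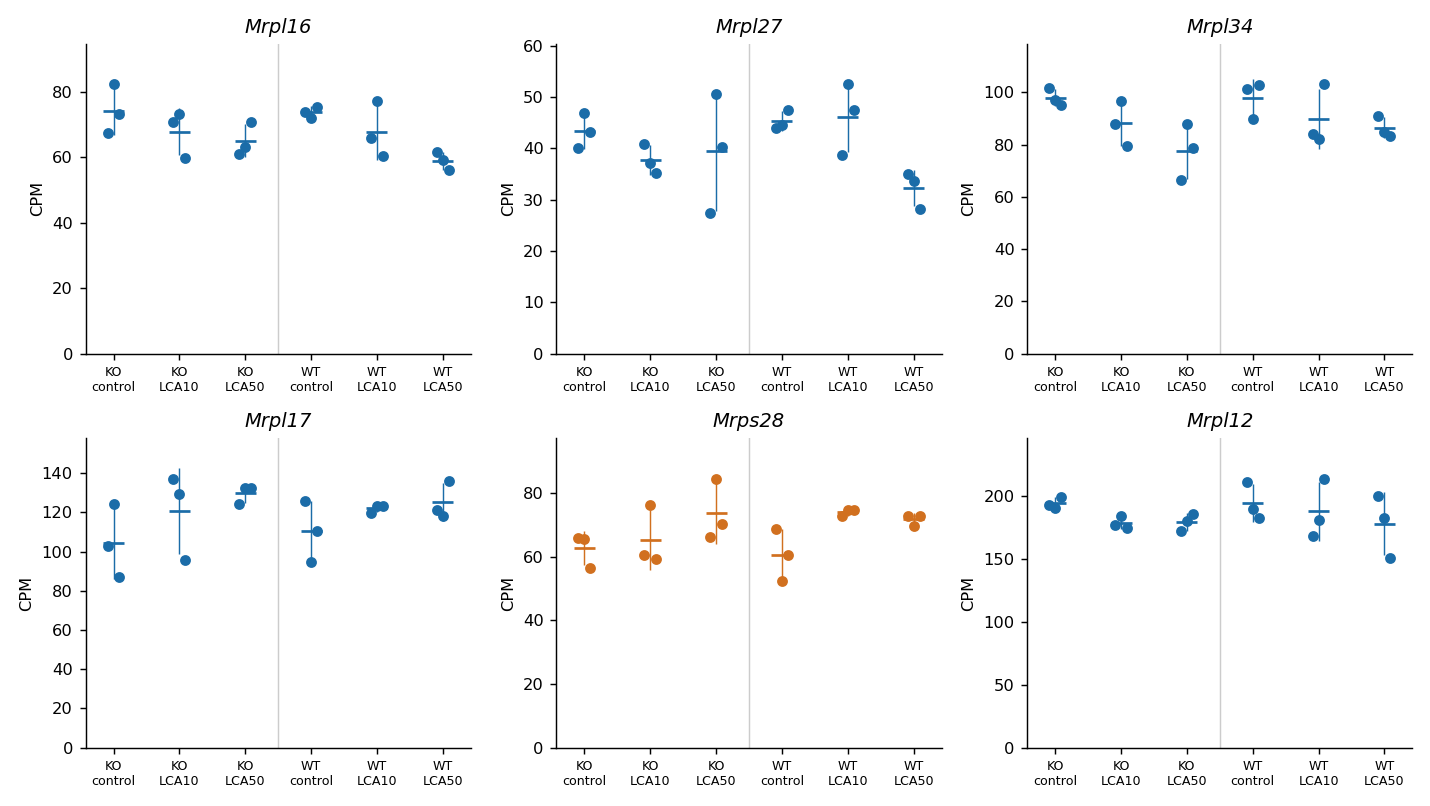
CPM of Mrpl16, Mrpl27, Mrpl34, Mrpl17, Mrps28 and Mrpl12 in each library by group, KO groups left of WT groups and doses low to high, with the mean and SD (n = 3) and axes from 0. Mrpl27 is lowest in WT LCA50 and Mrpl34 in KO LCA50 cells, while Mrps28 is higher with 50 µM LCA than in control in both genotypes.

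The promoters of the called large-subunit members are shown because an ETS-family factor, Gabpa, was among the regulators called (it was lower with 50 µM LCA in the average). That call was lost in 11 of 20 other settings. ETS, NRF1 and YY1 sites are a known feature of genes for mitochondrial proteins. Each is the RefSeq sequence of the 250 bases before RefSeq's gene start in GRCm38.p6, written 5′ to 3′ on the gene's strand. RefSeq's start is not that of the GENCODE positions given above: it lies 24 bases further into the gene for Mrpl16 and Mrpl27 and 12 for Mrpl17, so those windows end within the gene as GENCODE draws it, and 33 bases before the GENCODE start for Mrpl34. Capitals mark the ETS core CCGGAAG and, in Mrpl17, the reverse complement GCGCATGC of an NRF1 core. The windows are chr19:11770165-11770414 (plus strand) for Mrpl16, chr7:105811088-105811337 (minus strand) for Mrpl17, chr11:94653541-94653790 (plus strand) for Mrpl27 and chr8:71464676-71464925 (plus strand) for Mrpl34.
Mrpl16: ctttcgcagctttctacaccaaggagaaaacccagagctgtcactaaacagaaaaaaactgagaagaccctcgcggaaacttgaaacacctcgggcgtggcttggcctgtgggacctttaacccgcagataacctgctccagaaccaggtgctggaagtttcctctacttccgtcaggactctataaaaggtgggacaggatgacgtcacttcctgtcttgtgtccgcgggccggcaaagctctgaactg
Mrpl17: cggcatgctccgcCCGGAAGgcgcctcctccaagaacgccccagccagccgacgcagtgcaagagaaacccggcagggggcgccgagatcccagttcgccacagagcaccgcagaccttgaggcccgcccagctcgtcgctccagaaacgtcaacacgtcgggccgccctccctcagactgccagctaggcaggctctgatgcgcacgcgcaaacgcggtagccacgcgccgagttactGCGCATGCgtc
Mrpl27: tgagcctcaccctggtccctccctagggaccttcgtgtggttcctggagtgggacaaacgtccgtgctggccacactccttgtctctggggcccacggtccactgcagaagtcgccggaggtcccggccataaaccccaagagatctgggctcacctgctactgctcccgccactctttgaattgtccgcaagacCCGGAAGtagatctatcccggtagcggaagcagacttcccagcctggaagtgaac
Mrpl34: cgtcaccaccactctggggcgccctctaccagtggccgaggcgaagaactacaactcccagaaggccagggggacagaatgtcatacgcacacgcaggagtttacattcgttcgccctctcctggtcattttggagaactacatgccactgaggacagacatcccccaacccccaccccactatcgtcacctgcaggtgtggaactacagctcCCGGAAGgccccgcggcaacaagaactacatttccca

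The ETS core began 237 bases before RefSeq's start in Mrpl17, 55 before it in Mrpl27 and 37 before it in Mrpl34. The Mrpl16 window held no exact match of the motifs searched. Other forms of these sites were not searched, so it may still hold one. Mrpl27 also has a YY1 match that lies after RefSeq's start and is not printed. Whether any of these motifs, or the level of Gabpa, bears on the changes with 50 µM LCA was not tested.

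RefSeq promoter entries of 300 bases, 250 before and 50 after the start, were found for 69 of 78 members, and motifs were searched as exact letters on both strands. A gene was counted once, where any of its entries held the motif. The ETS core CCGGAAG was in 26 (37.7%), against 21.4% of 9005 tested genes and 9.93% of all 27025 genes with an entry. The YY1 motif ATGGCGGC was in 12 (17.4%), against 6.13% of tested genes and 2.60% of all genes with an entry. Neither motif contains the other, and 5 members held both.

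The NRF1 core GCATGCGC was in 8 (11.6%), against 6.35% of tested genes and 3.05% of all genes with an entry. The E-box CACGTG was in 5 (7.25%), against 11.9% and 8.09%. The ATF4 motif TGATGCAA was in none, against 0.844% of tested genes and 1.03% of all genes with an entry. By subunit, the ETS core was in 15 of 43 large-subunit and 11 of 26 small-subunit members with an entry. A match is a description of letters, not of a bound site.

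Some of these genes start close to a neighbour read the other way. For 18 of the 78 members (23.1%), a protein-coding gene on the other strand that is read away from them started within 1000 bases upstream. They were 12 of the large and 6 of the small subunit, and the share was 11.1% over 10928 tested protein-coding genes. Pairs whose 5′ ends overlap, such as Mrpl46 and Mrps11, were not counted. Mrpl54 and Apba3 start 26 bases apart, Mrps18c and Helq 29, and Mrps12 and the mitochondrial seryl-tRNA synthetase gene Sars2 172.

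Beyond the called genes, several members are known for more than a place in the ribosome. Mrpl12, the counterpart of bL12 in the flexible stalk that recruits translation factors, is also reported to bind the mitochondrial RNA polymerase. It was at 173, 180.4 and 186 CPM in KO LCA50 and 193, 191 and 199.8 CPM in KO control cells, and at 200.4, 183 and 151 CPM in WT LCA50 and 212, 189.7 and 183 CPM in WT control cells. All KO LCA50 values were below all KO controls, and the WT groups overlapped; the averaged change of -0.12 ± 0.06 did not pass the test (edgeR adjusted p = 0.213).

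Mrpl58, a peptidyl-tRNA hydrolase that frees stalled ribosomes, averaged 97.6 ± 7.02 CPM in KO LCA50 and 101 ± 5.60 CPM in KO control cells, and 96.5 ± 10.3 CPM in WT LCA50 and 108 ± 3.59 CPM in WT control cells (SD, n = 3 each). Its averaged log2 fold change was -0.11 ± 0.07 (edgeR adjusted p = 0.321). Mrps36, which structures place in the 2-oxoglutarate dehydrogenase complex and not in the ribosome, averaged 7.67 ± 2.64 CPM in KO LCA50 and 9.28 ± 3.49 CPM in KO control cells, and 9.02 ± 2.79 CPM in WT LCA50 and 9.40 ± 1.00 CPM in WT control cells (SD, n = 3 each). Its log2 fold change was -0.26 ± 0.31 in KO and -0.05 ± 0.31 in WT cells, and neither passed the test (edgeR adjusted p = 0.71 and 0.943).

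The paralogs of bacterial S18 occupy different places: Mrps18a sits in the large subunit, and Mrps18b and Mrps18c in the small one. Their averaged log2 fold changes at LCA50 were 0.13 ± 0.08, 0.16 ± 0.08 and 0.04 ± 0.09, none of them called (edgeR adjusted p = 0.265, 0.171 and 0.794). Mrps30, also placed in the large subunit by structure, gave 0.02 ± 0.08 (edgeR adjusted p = 0.915). In CPM over all 18 libraries, Mrps18a ran over 71.5 to 101, Mrps18b over 48.1 to 59.7, Mrps18c over 47.1 to 73.0 and Mrps30 over 93.1 to 131.

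Other members stood at the ends of the ranking at LCA50 without a call. In KO cells the log2 fold changes were lowest for Mrpl23 (-0.72 ± 0.47) and Mrpl34 in the large subunit, and for Mrps33 (-0.26 ± 0.26) and Mrps36 in the small one. They were highest for Mrpl17 and Mrpl52 (0.26 ± 0.13), and for Mrps22 (0.26 ± 0.15) and Mrps28. In WT cells Mrps21, a counterpart of bacterial bS21, gave -0.39 ± 0.16 (edgeR adjusted p = 0.117) and Mrps14, of uS14, -0.24 ± 0.09 (edgeR adjusted p = 0.0836), both with groups that did not overlap. Mrpl4 (0.20 ± 0.09) and Mrpl38 (0.25 ± 0.13) were the highest of the large subunit in WT cells, and Mrps28 and Mrps18b (0.21 ± 0.11) of the small.

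With 10 µM LCA no member was called in either genotype. In KO cells edgeR called 0 of 78, against 0.326% of all genes, with 3 members at an unadjusted p under 0.05, as were 7.81% of all genes. In WT cells it called 0, against 0.386% of all genes, with 5 at an unadjusted p under 0.05, as were 7.8% of all genes. In the average it called 0, against 1.82%, with 4 at an unadjusted p under 0.05, as were 11.8% of all genes. DESeq2 called 0 in each of the 3. The smallest adjusted p in the average was that of Mrpl52, at 0.27 ± 0.09 (edgeR adjusted p = 0.142), a member specific to mitochondria. It was at 63.7, 66.1 and 47.3 CPM in KO LCA10 and 46.4, 53.2 and 45.8 CPM in KO control cells, and at 58.2, 65.0 and 61.7 CPM in WT LCA10 and 58.0, 47.1 and 49.2 CPM in WT control cells. The summed markers of red cells and platelets, 2.93 to 8.68 CPM in WT LCA10 and 19.2 to 42.7 CPM in WT control libraries, did not overlap. In KO cells the CD8 T cell markers, 9116 to 9434 CPM at LCA10 and 9820.2 to 10382 CPM in control, did not overlap. Nor did the NK cell markers, 0 to 0.894 CPM in KO LCA10 and 1.19 to 1.69 CPM in KO control libraries. The part of these marker shifts was not tested.

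Across the dose series in KO cells, Mrps28 averaged 62.6 ± 5.34 CPM in control, 65.3 ± 9.43 CPM at LCA10 and 73.7 ± 9.62 CPM at LCA50 (SD, n = 3 each). In WT cells it averaged 60.6 ± 8.22 CPM in control, 74.0 ± 1.12 CPM at LCA10 and 71.8 ± 1.81 CPM at LCA50 (SD, n = 3 each). Its averaged change at LCA10 was 0.18 ± 0.08 and was not called (edgeR adjusted p = 0.394); all WT LCA10 libraries were above all WT controls, and the KO groups overlapped.

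Between guides, no member was called by edgeR or DESeq2 in KO against WT at any dose: edgeR called 0.627% of all genes in control cells, 0.661% at LCA10 and 1.94% at LCA50, and 5.15% over the mean of the doses. At an unadjusted p under 0.05 stood 3 members in control, 7 at LCA10, 5 at LCA50 and 5 over the mean of the doses, where 8.69%, 8.39%, 13.5% and 15.4% of all genes did. Markers of myeloid cells summed to 10.2 to 13.2 CPM in KO control, 10.2 to 20.3 CPM in KO LCA10 and 8.64 to 24.8 CPM in KO LCA50 libraries. They summed to 40.3 to 61.9 CPM in WT control, 30.9 to 48.6 CPM in WT LCA10 and 45.3 to 49.5 CPM in WT LCA50 libraries. All 6 listed markers were in the table, with S100a8 at 0 in all KO control and Ngp at 0 in all KO LCA50 libraries, and the sums did not overlap between genotypes. The 5 markers of red cells and platelets summed to 0 to 4.56 CPM in KO control, 2.84 to 14.6 CPM in KO LCA10 and 2.18 to 3.93 CPM in KO LCA50 libraries. They summed to 19.2 to 42.7 CPM in WT control, 2.93 to 8.68 CPM in WT LCA10 and 3.84 to 32.6 CPM in WT LCA50 libraries, so the genotypes did not overlap in control cells alone, where Hba-a1, Hbb-bs and Hbb-bt were at 0 in all KO control libraries and Hba-a1 in all WT control libraries. CD8 T cell markers summed to 9820.2 to 10382 CPM in KO control and 9014 to 9342 CPM in WT control libraries, without overlap. NK cell markers, 1.19 to 1.69 CPM in KO control and 0.607 to 1.03 CPM in WT control libraries, did not overlap either. B cell markers did not overlap at LCA50, at 4.75 to 5.72 CPM in KO and 7.43 to 8.36 CPM in WT libraries. At the other doses these sums overlapped between genotypes. The part of any marker list in the comparison of genotypes was not tested.

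Though none passed the test, the KO minus WT values were mostly negative in control and LCA10 cells and mostly positive at LCA50. In control cells KO minus WT was positive for 16 of 49 large-subunit and 12 of 29 small-subunit members, 35.9% of all members, with medians of -0.02 for each subunit on the log2 scale, while 49.7% of all genes were positive. At LCA10, KO minus WT was positive for 11 of 49 large-subunit and 10 of 29 small-subunit members, with medians of -0.07 and -0.09 on the log2 scale, while 48.9% of all genes were positive. At LCA50 it was positive for 40 of 49 and 16 of 29, with medians of 0.07 and 0.03, while 50.6% of all genes were positive. Genes for cytosolic ribosomal proteins were positive for 42 of 82 in control, 24 of 82 at LCA10 and 73 of 82 at LCA50. Nuclear genes of respiratory chain and ATP synthase subunits were positive for 29, 15 and 65 of 79 in turn. The signs at LCA10 and LCA50 were thus not particular to the members. Replicate 3 of KO LCA10 had the lowest sums of both subunits, and the median of the members at LCA50, 0.05, became -0.02 with the background covariate.

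Over the mean of the doses the medians were -0.01 and -0.04. The lowest adjusted p among the members named there belonged to Mrpl18, at -0.11 ± 0.05 (edgeR adjusted p = 0.232), and its CPM ran over 178 to 225 in KO and 191 to 246 in WT libraries, which overlap. At the low end Mrps36 gave -0.24 ± 0.18, Mrpl37 -0.12 ± 0.06 and Mrps27 -0.11 ± 0.06, and at the high end stood Mrpl48 (0.20 ± 0.10), Mrpl22 (0.15 ± 0.09), Mrps16 (0.14 ± 0.06) and Mrps22 (0.12 ± 0.09). The highest single value of KO over WT was that of Mrpl23 at LCA10, 1.06 ± 0.44 (edgeR adjusted p = 0.451), on 31, 21 and 27 counts in KO and 14, 9 and 17 counts in WT libraries.

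At LCA50, Mrpl33 was at 101, 115 and 127 CPM in KO and 92.5, 97.4 and 85.1 CPM in WT cells, a log2 fold change of 0.32 ± 0.11 (edgeR adjusted p = 0.146). Mrps16, of bacterial bS16, was at 108, 146 and 139 CPM in KO and 111, 103 and 106 CPM in WT cells, 0.30 ± 0.11 (edgeR adjusted p = 0.177). The libraries of Mrpl33 did not overlap and those of Mrps16 did. Without replicate 1 of KO LCA50, both were called, the 2 members that any single omission brought past the threshold in this contrast.

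No member's response passed the test of a difference between genotypes. KO minus WT response was called by edgeR for 0 members and 0.0% of all genes at LCA50, with 4 members and 6.26% of all genes at an unadjusted p under 0.05. At LCA10 it was called for 0 members and 0.0% of all genes, with 3 members and 3.28% of all genes at an unadjusted p under 0.05. DESeq2 called 0 members in both. The smallest adjusted p at LCA50 was 0.77, for Mrps14, whose change was 0.08 ± 0.09 in KO and -0.24 ± 0.09 in WT cells.

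Genes that act around the ribosome were called at 50 µM LCA about as often as genes at large. Of 83 tested genes in 6 lists, 12 were called in the average (14.5%, against 16.5% of all genes), 4 in KO cells (4.82%, against 6.35%) and 9 in WT cells (10.8%, against 8.58%). At 10 µM and between genotypes edgeR called 0 in every contrast. At LCA10, 4 in KO, 6 in WT and 9 in the average had an unadjusted p under 0.05, against 7.81%, 7.8% and 11.8% of all genes. For KO against WT in control, LCA10, LCA50 and the mean of the doses, 2, 1, 10 and 5 did. Of all genes, 8.69%, 8.39%, 13.5% and 15.4% did so in the same contrasts. DESeq2 called 1 in the average at LCA10, 2 in KO against WT at LCA50 and 0 in the others. For the difference of responses edgeR and DESeq2 called 0. There 8 at LCA50 and 3 at LCA10 had an unadjusted p under 0.05, against 6.26% and 3.28% of all genes. The counts of each list below stand beside 7.86% of all genes called higher and 8.66% called lower in the average. At LCA50, 18.9% of all genes in KO and 22.2% in WT cells had an unadjusted p under 0.05.

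Of 5 ribosomal proteins with other names, Dap3, a GTP-binding small-subunit protein also named for a role in cell death, was lower. It was at 102, 94.3 and 92.7 CPM in KO LCA50 and 109, 119 and 104 CPM in KO control cells, and at 95.5, 89.0 and 80.4 CPM in WT LCA50 and 102, 97.4 and 114 CPM in WT control cells. All LCA50 libraries of each genotype were below its controls. The averaged log2 fold change was -0.22 ± 0.07 (edgeR adjusted p = 0.0168), and the call was lost without any 1 of KO control replicate 2, WT LCA50 replicate 3 or WT control replicate 3, at -0.25 to -0.19 over the 12 single omissions.

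Of 27 assembly factors, 3 were higher in the average and none lower, with a median of 0.09. Noa1, a GTPase of small-subunit assembly, changed by 0.24 ± 0.07 (edgeR adjusted p = 0.0136), Mrm1, a methyltransferase of the large ribosomal RNA, by 0.38 ± 0.12 (edgeR adjusted p = 0.0301), and Ddx28, a helicase of large-subunit assembly, by 0.29 ± 0.10 (edgeR adjusted p = 0.0442). In WT cells Rcc1l (0.43 ± 0.12, edgeR adjusted p = 0.0206), Noa1 (0.32 ± 0.10, adjusted p = 0.034) and Ddx28 (0.44 ± 0.14, adjusted p = 0.0475) were higher; in KO cells edgeR and DESeq2 called 0, with 2 at an unadjusted p under 0.05. Ddx28 was called in 8 of 20 and Mrm1 in 11 of 20 other settings of the average, so both depended on single libraries: values over the single omissions ran over 0.19 to 0.38 and 0.27 to 0.47. The calls were lost without any 1 of KO LCA50 replicates 1 and 2, KO control replicates 1, 2 and 3, WT LCA50 replicates 1 and 2 or WT control replicates 1 and 2 for Ddx28 and without any 1 of KO LCA50 replicate 1, KO control replicates 2 and 3, WT LCA50 replicates 1 and 2 or WT control replicates 2 and 3 for Mrm1. That of Noa1 was lost without WT control replicate 2 alone, at 0.19.

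In WT cells these calls were lost without any 1 of WT LCA50 replicates 2 and 3 or WT control replicates 2 and 3 for Rcc1l, WT LCA50 replicates 1 and 2 or WT control replicates 1 and 2 for Noa1 and WT LCA50 replicates 1 and 2 or WT control replicates 1, 2 and 3 for Ddx28. Over the single omissions the values ran over 0.35 to 0.55, 0.22 to 0.38 and 0.24 to 0.62, the lowest of Ddx28 being that without replicate 1 of WT LCA50.

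Of 17 translation factors, Gfm2, which helps to split ribosomes after translation ends, was higher in the average. It was at 58.2, 49.1 and 54.6 CPM in KO LCA50 and 46.6, 45.3 and 39.6 CPM in KO control cells, and at 61.4, 57.8 and 58.7 CPM in WT LCA50 and 43.8, 46.7 and 52.2 CPM in WT control cells. The groups did not overlap in either genotype, and the averaged log2 fold change was 0.31 ± 0.08 (edgeR adjusted p = 0.00649). No other factor of the list was called in the average, and none by edgeR or DESeq2 within a genotype, where 1 in KO and 2 in WT cells had an unadjusted p under 0.05.

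Of 18 genes of mitochondrial transcription and RNA, 1 was higher and 1 lower in the average. Tfam, which packs mitochondrial DNA and starts its transcription, was at 73.9, 74.7 and 75.003 CPM in KO LCA50 and 96.0, 89.4 and 98.5 CPM in KO control cells, and at 89.3, 74.7 and 68.0 CPM in WT LCA50 and 92.3, 104 and 94.3 CPM in WT control cells. Every LCA50 library was below every control of its genotype. The log2 fold change was -0.34 ± 0.07 in the average (edgeR adjusted p = 0.000762), -0.34 ± 0.10 in KO cells (adjusted p = 0.0302) and -0.33 ± 0.10 in WT cells (adjusted p = 0.0343).

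Elac2, which trims the 3′ ends of transfer RNA, rose by 0.29 ± 0.07 in the average (edgeR adjusted p = 0.00364) and 0.40 ± 0.10 in WT cells (adjusted p = 0.00847). Polrmt, the mitochondrial RNA polymerase, was called in WT cells, where it was at 75.1, 56.8 and 66.6 CPM with LCA50 and 51.4, 44.9 and 48.3 CPM in control, a change of 0.46 ± 0.12 (edgeR adjusted p = 0.0116). In KO cells it was at 49.3, 51.9 and 47.5 CPM with LCA50 and 50.0, 48.1 and 56.1 CPM in control (-0.05 ± 0.12, edgeR adjusted p = 0.858), and the difference of the responses was -0.51 ± 0.17 (edgeR adjusted p = 0.728). Within a genotype the calls were lost without any 1 of WT LCA50 replicate 1 or WT control replicate 2 for Polrmt in WT, WT control replicates 1 and 3 for Elac2 in WT, WT LCA50 replicates 2 and 3 or WT control replicates 2 and 3 for Tfam in WT, and KO LCA50 replicates 1, 2 and 3 or KO control replicates 1 and 3 for Tfam in KO cells.

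Of 10 regulators of mitochondrial genes, 2 were higher and 1 lower in the average. Pprc1, a coactivator related to Ppargc1a, was at 169, 149 and 149.8 CPM in KO LCA50 and 126, 132 and 134 CPM in KO control cells, and at 164, 194 and 196 CPM in WT LCA50 and 129.9, 113 and 127 CPM in WT control cells. It rose by 0.42 ± 0.07 in the average (edgeR adjusted p = 2.56e-05) and 0.59 ± 0.10 in WT cells (adjusted p = 9.13e-05), with 0.25 ± 0.10 in KO cells (adjusted p = 0.116). No LCA50 library overlapped the controls of its genotype.

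Atf4, the transcription factor of the integrated stress response, was at 605, 415 and 429 CPM in KO LCA50 and 323, 326 and 339 CPM in KO control cells, and at 404, 470.0 and 452 CPM in WT LCA50 and 322, 288 and 309 CPM in WT control cells. It rose by 0.54 ± 0.07 in the average (edgeR adjusted p = 6e-06), 0.55 ± 0.10 in KO (adjusted p = 0.00131) and 0.53 ± 0.10 in WT cells (adjusted p = 0.00148). With the background covariate, which cannot be told apart from the dose in WT cells, the WT value was 0.34 and no longer called. Gabpa, an ETS factor that acts on many mitochondrial genes, was lower at -0.22 ± 0.08 in the average (edgeR adjusted p = 0.0455), a call lost without any 1 of KO LCA50 replicate 1, KO control replicates 1 and 2, WT LCA50 replicates 1, 2 and 3 or WT control replicate 3, over -0.27 to -0.17.

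Of 6 mitochondrial proteases and chaperones, 2 were higher in the average. Lonp1, a matrix protease, was at 562, 337 and 318 CPM in KO LCA50 and 244, 246 and 271 CPM in KO control cells, and at 272, 316 and 277 CPM in WT LCA50 and 236, 209 and 243 CPM in WT control cells, with no overlap in either genotype. It rose by 0.50 ± 0.11 in the average (edgeR adjusted p = 0.00687) and 0.67 ± 0.16 in KO cells (adjusted p = 0.0209). Hspa9, the matrix Hsp70 chaperone, rose by 0.33 ± 0.07 in the average (edgeR adjusted p = 0.000694), 0.32 ± 0.09 in KO (adjusted p = 0.0395) and 0.35 ± 0.09 in WT cells (adjusted p = 0.0179). Replicate 1 of KO LCA50 was the highest library for Atf4, Lonp1 and Hspa9.

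Without replicate 1 of KO LCA50, Hspa9 in KO cells was 0.13 and no longer called, and Lonp1 in KO cells was 0.37 (edgeR adjusted p = 0.00445). The Lonp1 call ended without either of KO control replicates 1 and 2, and single omissions of KO LCA50 replicate 1 or KO control replicates 1, 2 and 3 ended the Hspa9 call in KO cells. In WT cells the Hspa9 call ended without any 1 of WT LCA50 replicates 2 and 3 or WT control replicates 1 and 3. It also ended with the background covariate (0.11), which cannot be told apart from the dose in WT cells. The averaged calls of Pprc1, Atf4, Tfam, Gfm2, Elac2, Lonp1 and Hspa9 held in all 20 other settings.

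Genes that resemble the mitochondrial ribosome or work with it were counted alike. Of 82 tested genes for cytosolic ribosomal proteins, edgeR called 4 (4.88%, all higher) with LCA50 in KO cells, against 6.35% of all genes, where 13 (15.9%) had an unadjusted p under 0.05, against 18.9% of all genes, and the median was 0.11. In WT cells edgeR and DESeq2 called 0, 2 (2.44%, against 22.2% of all genes) had an unadjusted p under 0.05 and the median was -0.02. In the average 3 (3.66%, against 16.5% of all genes) were called, all higher, with 10 (12.2%, against 28.8%) at an unadjusted p under 0.05.

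The nuclear genes of subunits of the respiratory chain and the ATP synthase, named respiratory genes here, have mitochondrial partners that the ribosome makes. Of 79 tested, 1 (1.27%, against 6.35% of all genes called) was lower in KO cells, with 12 (15.2%, against 18.9%) at an unadjusted p under 0.05. In WT cells 6 (7.59%) were lower, against 4.93% of all genes called lower, with 18 (22.8%, against 22.2%) at an unadjusted p under 0.05, and within neither genotype was one called higher. In the average 2 (2.53%, against 7.86% of all genes) were higher and 5 (6.33%, against 8.66%) lower, with 23 (29.1%, against 28.8%) at an unadjusted p under 0.05.

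In KO against WT at LCA50, edgeR called 0 of the cytosolic genes, against 1.94% of all genes. DESeq2 called 3, and the share of all genes that it called is not given here. Of the cytosolic genes, 19 (23.2%, against 13.5% of all genes) had an unadjusted p under 0.05, and their median was 0.16. Of the respiratory genes, edgeR called Cox7a2, higher, at LCA50, and Ndufa4, lower, at LCA10 and over the mean of the doses. Each call was 1 of 79 (1.27%), against 1.94% of all genes at LCA50, 0.661% at LCA10 and 5.15% over the mean of the doses. Cox7a2 and Ndufa4 were named after their values were seen. Ndufa4, a subunit of complex IV despite its name, had a KO over WT log2 fold change of -0.58 ± 0.11 at LCA10 (edgeR adjusted p = 0.00209) and -0.43 ± 0.06 over the mean of the doses (edgeR adjusted p = 1.02e-05), and both calls held without any single library. The LCA50 median of the respiratory genes was -0.10 in WT cells and -0.05 in the average. The sums of both sets were lowest in replicate 3 of KO LCA10, at 12254 CPM for the cytosolic and 16078 CPM for the respiratory genes, where the sum of the mitochondrial ribosome was lowest too.

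Some counts may hold reads of other genes. The exons of 24 members overlap those of another gene in the count table, 20 of them only on the other strand, as with Mrpl18 and Tcp1 or Mrpl27 and Eme1. On the same strand Mrps34 overlaps Nme3, Mrps24 Urgcp, Mrps6 Slc5a3 and Mrpl51 a microRNA gene. The annotation also holds pseudogenes of Mrpl23, Mrpl48 and Mrps36, none of which has a row in the table; the sources used here do not say how shared reads were treated, so the levels of these members are uncertain.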

How the data were processed

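The authors deposited raw counts per gene symbol for 18 libraries. Per the submitters' processing notes, STAR, HOMER and DESeq2 and the builds GRCm38 and mm10 were used; roles, versions, trimming, counting rules and strand are not given in the sources used here. Per the labels' protocols, RNA was isolated with a Qiagen kit and libraries were made by an ultra-low input method. Libraries held 4113713 to 5945518 counts; members had 6 to 1242 counts per library.

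All 18 libraries entered 1 edgeR 4.0.16 quasi-likelihood fit (R 4.3.3) with group means, filterByExpr by group (11651 genes), TMM scaling and robust dispersions (biological coefficient of variation 0.0984). P-values of 12 contrasts were adjusted by Benjamini-Hochberg over 11651 genes, and those under 0.05 called. "Average" means the mean of the KO and WT responses. Contrasts within a genotype share control libraries. CPM use TMM library sizes; intervals are 95%. Levels per kb used the longest principal transcript in GENCODE (GRCm38).

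The members and lists were chosen with earlier results of these data known. Members named were those called anywhere, the 2 highest and 2 lowest per subunit in LCA50 and genotype contrasts, the most and least abundant and variable, and 7 with other roles; of each list, up to 3 called each way. Mrpl33, Mrps16 and Mrpl52 at other contrasts were named after their values were seen, as were list genes beyond the rule. The other settings were DESeq2 1.42.0, its size factors, filters, the replicate number as a block, a background covariate, compared groups alone and left-out libraries. Shares of all genes called are those of edgeR in the main fit. The fit was tested on simulated data. By the mean chi-square per gene, replicate pairs differed by 2.41 to 8.19 times the variance of counting error, so none was a copy. Replicate 1 of KO LCA50 differed most from its partners, at 8.19 and 7.79.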

Additional observations from a re-analysis of the deposited data

How the results depend on the processing

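The number of members called lay between 0 and 6 under every setting. The share of all genes called under the other settings is not given here, so these counts cannot be set against it. In WT LCA50 against control it was 0 with the background covariate and 0 without replicate 1 of KO LCA50 and replicate 3 of WT LCA50 together, and 0 to 1 over single omissions. In KO cells it was 1 (Mrpl34) with DESeq2, without a filter, with a mean CPM of at least 5 and with the covariate, and 0 to 1 over single omissions (Mrpl17 without replicate 2 of KO control and Mrpl34 without replicate 2 of KO LCA50). In the average it was 2 with the covariate (Mrpl4 and Mrps28), 1 without the 2 libraries (Mrps28), and 1 to 6 over single omissions (1 without replicate 3 and 6 without replicate 1 of WT LCA50). For LCA10 in the average it was 0 to 1 over single omissions (1 without replicate 3 of KO LCA10), and for KO against WT at LCA50 0 to 2 (2 without replicate 1 of KO LCA50). The remaining contrasts kept their 0.

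The large subunit's share in percent depended on how members were weighed more than on the group. Per kb it was 69.1 in KO control, 69.0 in KO LCA10, 68.6 in KO LCA50, and 69.2, 69.1 and 68.1 in WT control, LCA10 and LCA50 cells. Without the most abundant member of each subunit it was 67.2, 66.8 and 67.0 in KO control, LCA10 and LCA50, and 67.1, 67.1 and 66.3 with the WT guide at the same doses. As geometric means it was 54.4, 54.8 and 54.3 in KO control, LCA10 and LCA50, and 54.6, 54.3 and 53.5 in WT control, LCA10 and LCA50 cells. With members placed by structure it was 69.7, 69.3 and 69.5 in KO control, LCA10 and LCA50, and 69.7, 69.6 and 69.2 in WT control, LCA10 and LCA50 cells.

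Of the settings tried for single genes, 390 kept direction and call, 126 kept direction alone and none turned round; those for genes outside the members were added after seeing the data. The same replicate number did not pair libraries: the correlation of their deviations ran from -0.218 to 0.0881 over 45 pairs, and the best partner had the same number in 32 of 90. With the replicate block, 1 member was called in WT LCA50, 0 in KO LCA50 and 5 in the average. Depth limits Mrpl23, Mrps33 and other members with few counts, whose intervals were the widest.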

Other observations

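Replicate 3 of KO LCA10 held the lowest summed CPM of the large subunit (3762), the small subunit (1948) and both together (5710.0) of the 18 libraries, while its large share was 65.9%. Replicate 3 of WT LCA50 held the lowest large share (65.1%) with sums of 3893 CPM for the large and 2088 CPM for the small subunit. It also held the highest summed CPM of the odorant, vomeronasal and trace amine receptor genes below the filter (223).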
